A study of Mus with 4 samples.

Results

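The immediate early response genes described here are *Fos*, *Fosb*, *Jun*, *Junb*, *Jund*, *Atf3*, *Egr1*, *Nr4a1*, *Myc* and *Ier2*, 10 genes chosen by name out of 10105 gene symbols that carried an m6A peak in interscapular brown adipose tissue (iBAT). Peaks were measured by MeRIP-seq, in which an m6A antibody pulls down (IP) pieces of poly(A)+ RNA and a stretch of transcript enriched over the input is called a peak. The 4 sequenced samples were an IP and an input from *Wtap* flox/flox mice, which carry the floxed allele without Cre, and an IP and an input from *Wtap*-BKO mice, which carry the same floxed allele and UCP1-iCre. All mice were C57BL/6 and 8 weeks old, and RNA of 8 mice was pooled for each genotype. UCP1-iCre acts in brown adipocytes, so the other cells of the tissue keep *Wtap*, and the lists do not say from which cells a transcript came. The authors deposited 1 peak list per genotype, with 18400 peaks for *Wtap* flox/flox and 18693 for *Wtap*-BKO mice. Since each genotype is a single pool, differences between them could not be tested, and the read depth behind the lists is unknown. The lists hold no transcript levels, so the loss of *Wtap* RNA cannot be checked in them.

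Immediate early genes are transcribed within minutes of a stimulus without the need for new protein, and their mRNAs are typically short-lived. In brown fat, adrenergic stimulation through cAMP is a known inducer of several of them, *Fos* and *Nr4a1* included. FOS and JUN proteins pair through leucine zippers to form the AP-1 transcription factor, ATF3 is a related bZIP protein, EGR1 is a zinc finger factor, NR4A1 is an orphan nuclear receptor and MYC is a bHLH factor that pairs with MAX. WTAP belongs to the complex that writes m6A on mRNA together with METTL3 and METTL14.

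All 10 genes had at least 1 peak in both lists. They carried 23 peaks in *Wtap* flox/flox mice and 24 in *Wtap*-BKO mice, a mean of 2.3 and 2.4 per gene, against 1.89 and 1.92 over all genes with a peak. Over all 10105 gene symbols, 73.3% had a peak in both. At least 2 peaks were found on 9 of the 10 genes in *Wtap* flox/flox mice, where the share over all genes was 49.3%, and on 8 of the 10 in *Wtap*-BKO mice, where it was 49.6%. *Ier2* had 1 peak in each list, and *Atf3* had 2 in the first and 1 in the second.

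Each of the 23 *Wtap* flox/flox peaks overlapped a *Wtap*-BKO peak by 1 exonic base or more, strand considered (100%, 95% Wilson interval 85.7% to 100%), against 67.8% of all peaks of that list. Each of the 24 *Wtap*-BKO peaks was likewise found in the *Wtap* flox/flox list (100%, interval 86.2% to 100%), against 68% of its list. A false discovery rate under 1e-05 was listed for 21 of the 23 and 19 of the 24 peaks, against 63.1% and 58.4% of the lists, and one under 1e-20 for 13 and 16, against 26.7% and 19.7%. Strong peaks are found again more often in general. Among *Wtap* flox/flox peaks with a false discovery rate under 1e-05, 79.6% of the whole list and 21 of 21 on these genes were found, and for *Wtap*-BKO peaks 84.6% of the list and 19 of 19. Under 1e-20 the list shares were 89.3% and 97.5%, with 13 of 13 and 16 of 16 on these genes. When at least 50% of the bases of a peak had to be shared, 22 of 23 *Wtap* flox/flox peaks were found, against 59.3% of the list, and 20 of 21 and 13 of 13 at the stricter limits, against 69.8% and 79.3%. The exception was the first peak of *Myc*. For *Wtap*-BKO peaks these counts were 22 of 24, 18 of 19 and 15 of 16, against 62.5%, 78.9% and 94.6%, the exceptions being the second peak of *Fos* and the first of *Fosb*. The Wilson intervals assume independent peaks and reflect only counting error. Most of these genes carried several peaks, which may not be independent. The genes were chosen by name with earlier results of these data known.

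**Figure D1:**
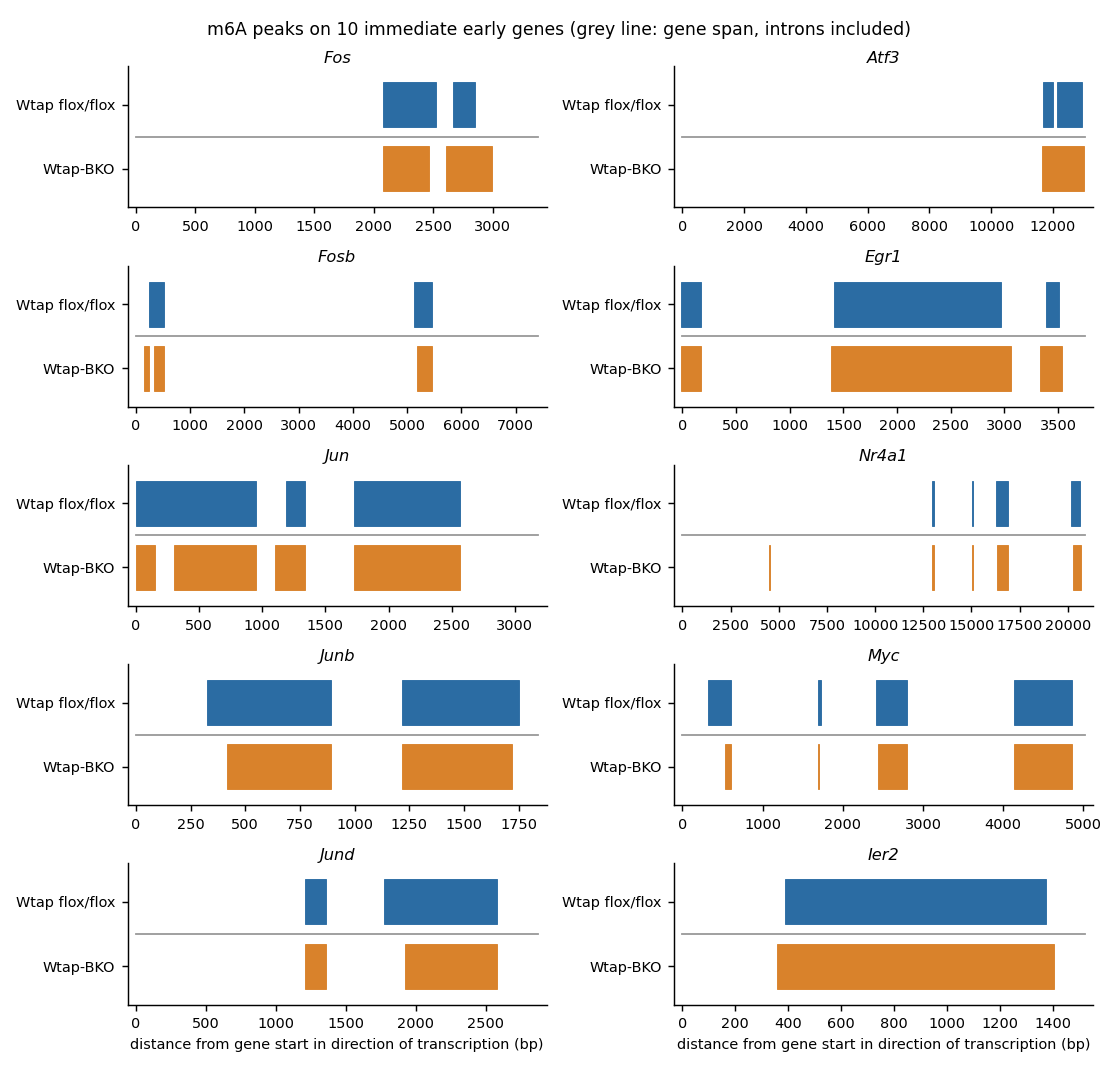
Peaks of each gene drawn to scale, with the distance from the start of the gene in base pairs along the direction of transcription, introns included, on the horizontal axis. Blue blocks are *Wtap* flox/flox peaks and orange blocks are *Wtap*-BKO peaks, the grey line is the span of the gene, and every block group of one list lies against one of the other list, as for the 3 *Jun* peaks and the 4 *Jun* peaks.

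*Fos* (ENSMUSG00000021250) encodes the founding partner of JUN in AP-1 and spans, on chromosome 12 (plus strand, GRCm38), positions 85473890 to 85477274. Its peaks lay in the 3′ part of the gene in both lists. In *Wtap* flox/flox mice the peak from 85475964 to 85476410 was enriched 4.75-fold in the IP over the input, with a log10 p-value of −15.2, and the peak from 85476559 to 85476737 had 2.65 and −6.99. In *Wtap*-BKO mice the peak from 85475964 to 85476350 had 5 and −23.1, and the peak from 85476499 to 85476886 had 5.49 and −35.9. Fold enrichments and p-values were computed by the authors within 1 genotype and share no scale between the lists. A raw difference between the lists is therefore not a change in methylation. The median fold enrichment was 6.58 over the *Wtap* flox/flox list and 4.65 over the *Wtap*-BKO list. Ranks of a peak within its own list are given beside the raw values. The second *Fos* peak ranked above 42.4% of the *Wtap* flox/flox list by false discovery rate, and its counterpart, which reached 60 bases further 5′ and 149 bases further 3′, ranked above 88.8% of the *Wtap*-BKO list. The first peak ranked above 64.8% and 81.7%. The strongest *Fos* peak was therefore the 5′ one in *Wtap* flox/flox mice and the 3′ one in *Wtap*-BKO mice. Exonic bases under *Fos* peaks were 626 and 775, of which 566 lay in both lists.

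*Fosb* (ENSMUSG00000003545), a FOS relative that also pairs with JUN proteins, lies on the minus strand of chromosome 7 from 19302696 to 19310118. It had the weakest leading peak of the 10 genes in both lists, by p-value. The *Wtap* flox/flox peaks ran from 19309603 to 19309872, near the start of the gene, and from 19304667 to 19304996, with log10 p-values of −5.68 and −8.63. The latter had a fold enrichment of 30.7, higher than 97.6% of its list. In *Wtap*-BKO mice the peak near the start was replaced by 2 peaks, from 19309872 to 19309961 and from 19309603 to 19309782, with log10 p-values of −2.79 and −4.35. The first of them touched the *Wtap* flox/flox peak by 1 base, so its match rests on that base alone. For the third, from 19304667 to 19304936, fold enrichment was 12.1, higher than 82.6% of its list, and the log10 p-value −4.67. No *Wtap*-BKO peak on *Fosb* had a false discovery rate under 1e-05, and *Fosb* was the only one of the 10 genes without such a peak in that list. Covered bases were 600 and 540, with 451 in both.

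*Jun* (ENSMUSG00000052684), which encodes the partner of FOS, lies on the minus strand of chromosome 4 from 95049036 to 95052222, and is intronless like *Junb* and *Jund*, so positions on these genes are positions on the transcript. Peaks covered 60.8% of its span in *Wtap* flox/flox mice and 59.0% in *Wtap*-BKO mice. The strongest peak was the same 835 bases in both lists, from 95049660 to 95050494. By fold enrichment it ranked above 86.7% and 89.3% of the lists. Its fold enrichment was 15.9 and its log10 p-value −755 in *Wtap* flox/flox mice, and 14.9 and −668 in *Wtap*-BKO mice, with a false discovery rate listed as 0 in both. A weak middle peak began at 95050881 in both lists and ended at 95051030 and 95051120, with fold enrichments of 1.58 and 1.63, above only 1.22% and 3.22% of their lists. The 5′ part differed. *Wtap* flox/flox mice had 1 peak there, from 95051269 to 95052222, the first base of the gene, enriched 12.9-fold, with a log10 p-value of −82.8. In *Wtap*-BKO mice the same outer edges enclosed 2 peaks, from 95051269 to 95051924 and from 95052073 to 95052222, with fold enrichments of 2.92 and 5.48 and log10 p-values of −45.3 and −11.4. By fold enrichment the *Wtap* flox/flox peak ranked above 79.1% of its list. The larger *Wtap*-BKO peak ranked above 26.5% of its own list and the smaller one above 56.6%. By false discovery rate the ranks of the *Wtap* flox/flox peak and the larger *Wtap*-BKO peak were 94.1% and 91.6%. An unnamed gene on the opposite strand (ENSMUSG00000087366) had a peak over 232 bases of the *Wtap* flox/flox peak and one over 210 bases of the larger *Wtap*-BKO peak. The labels do not state that the libraries kept strand, so reads of *Jun* and this gene cannot be told apart there.

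*Junb* (ENSMUSG00000052837) lies on the minus strand of chromosome 8 from 84976909 to 84978748 and encodes a JUN relative. It had 2 peaks in each list, and every *Wtap*-BKO base under a peak was also under a *Wtap* flox/flox peak. The 5′ peak ran from 84977858 to 84978422 in *Wtap* flox/flox mice and to 84978333 in *Wtap*-BKO mice, with log10 p-values of −85.4 and −81.1. The 3′ peak ran from 84976999 and from 84977029, respectively, to 84977532, with −245 and −262. Fold enrichments were 7.52 and 6.49 in *Wtap* flox/flox mice and 5.18 and 5.75 in *Wtap*-BKO mice. They ranked above 56.2% and 49.4% of the first list and above 54.5% and 58.7% of the second. The 3′ peak ranked above 98.7% and 99.4% of its list by false discovery rate.

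*Jund* (ENSMUSG00000071076), the JUN family member that in many cells is present before stimulation, lies on the plus strand of chromosome 8 from 70697739 to 70700616. A peak of 150 bases from 70698949 to 70699098 was identical in both lists, enriched 2.58-fold with a log10 p-value of −26.7 in *Wtap* flox/flox mice and 3.42 and −50.8 in *Wtap*-BKO mice. The long 3′ peak ended at 70700318 in both lists and began at 70699515 in *Wtap* flox/flox mice and at 70699663 in *Wtap*-BKO mice, by which covered bases fell by 148. Its fold enrichments were 10.4 and 5.98 and its log10 p-values −939 and −622, the former the smallest of all peaks on the 10 genes. An unnamed gene on the opposite strand (ENSMUSG00000080058) had peaks over 543 bases of the *Wtap* flox/flox peak and 418 bases of the *Wtap*-BKO peak, in the list of the same genotype. As on *Jun*, reads of *Jund* and this gene cannot be told apart there. On *Jun*, *Junb* and *Jund* the centre of the strongest *Wtap* flox/flox peak lay at 67.3%, 80.6% and 75.7% of the transcript from its 5′ end, and that of the strongest *Wtap*-BKO peak at 67.3%, 79.8% and 78.2%.

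*Atf3* (ENSMUSG00000026628), a bZIP factor of the cellular stress response, lies on the minus strand of chromosome 1 from 191170296 to 191183333. Its peaks in both lists lay in the last stretch of the gene. *Wtap* flox/flox mice had peaks from 191171343 to 191171642 and from 191170386 to 191171193, with fold enrichments of 4.60 and 6.39 and log10 p-values of −9.32 and −29.2. In *Wtap*-BKO mice 1 peak of 1347 bases, from 191170326 to 191171672, lay over both, enriched 9.83-fold, with a log10 p-value of −50.2. By fold enrichment it ranked above 76.0% of its list, and the *Wtap* flox/flox peaks above 34.5% and 49.0% of theirs. *Atf3* gained the most covered bases among the 10 genes, from 1108 to 1347.

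*Egr1* (ENSMUSG00000038418) lies on the plus strand of chromosome 18 from 34861207 to 34864956 and encodes a zinc finger transcription factor. It had 3 peaks in each list, and the 1856 bases covered in *Wtap* flox/flox mice were all among the 2065 covered in *Wtap*-BKO mice. The first peak, which began just before the annotated gene start and ran from 34861198 to 34861377, was identical in both lists. Its fold enrichment was 8.12 and its log10 p-value −52.9 in *Wtap* flox/flox mice, and 3.76 and −32.0 in *Wtap*-BKO mice. The middle peak was the longest on any of the 10 genes, 1555 bases from 34862623 to 34864177 and 1675 bases from 34862593 to 34864267, with fold enrichments of 8.88 and 7.87 and log10 p-values of −404 and −439. By fold enrichment the first peak ranked above 58.8% and 39.6% of the lists, and the middle peak above 62.3% and 69.7%. The 3′ peak was the one whose rank by false discovery rate rose most among the 10 genes. In *Wtap* flox/flox mice it covered 121 bases from 34864595 to 34864715 with a fold enrichment of 1.57, above 27.5% of its list by false discovery rate. In *Wtap*-BKO mice it covered 210 bases from 34864536 to 34864745 with 2.84, above 82.7% of its list.

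*Nr4a1* (ENSMUSG00000023034), which encodes an orphan nuclear receptor induced by cAMP, lies on the plus strand of chromosome 15 from 101253902 to 101274795. Its 2 downstream peaks ranked lower in the *Wtap*-BKO list by both measures. The peak from 101270179 to 101270778 was enriched 5.47-fold, with a log10 p-value of −565 in *Wtap* flox/flox mice, and in *Wtap*-BKO mice, from 101270239 to the same end, 2.40 and −69.9. The peak from 101274045 to 101274555 had 4.95 and −637, and its counterpart from 101274195 to 101274585 had 2.25 and −58.5. By fold enrichment these 2 peaks ranked above 42.2% and 37.8% of the *Wtap* flox/flox list and above 16.6% and 13.7% of the *Wtap*-BKO list. By false discovery rate they ranked above 99.2% of the first list and above 95.5% and 94.0% of the second. The spliced upstream peak went the other way, with fold enrichments of 2.14 and 3.58, above 6.27% and 37.2% of the lists. In *Wtap* flox/flox mice it had 2 blocks from 101266854 to 101268990, and in *Wtap*-BKO mice 3 blocks from 101258405, the added one being 22 bases long and further 5′.

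*Myc* (ENSMUSG00000022346), a regulator of growth and metabolism, lies on the plus strand of chromosome 15 from 61985341 to 61990361. It had 3 peaks in each list, and all 1166 bases covered in *Wtap*-BKO mice were among the 1435 covered in *Wtap* flox/flox mice, the largest loss of covered bases among the 10 genes. The first peak went from 329 to 90 bases and the middle one from 389 to 359. At the 5′ end the *Wtap* flox/flox peak, with 2 blocks of 292 and 37 bases from 61985660 to 61987070, had a log10 p-value of −10.1, and the *Wtap*-BKO peak, with blocks of 83 and 7 bases from 61985869 to 61987040, had −2.45. They ranked above 54.0% and 0.952% of their lists by false discovery rate, while their fold enrichments of 4.25 and 3.29 ranked above 30.9% and 32.8%. The middle peak, from 61987755 and from 61987785 to 61988143, had fold enrichments of 3.98 and 2.30 and log10 p-values of −12.8 and −5. By fold enrichment the middle peak ranked above 28.0% and 14.7% of the lists. The 3′ peak was the same 717 bases in both lists, from 61989479 to 61990195. Its fold enrichment was 21.1 with a log10 p-value of −74.5 in *Wtap* flox/flox mice, and 78.1 with −46.9 in *Wtap*-BKO mice. The 78.1 was the highest fold enrichment of any peak on the 10 genes and above 99.9% of the *Wtap*-BKO list. In the *Wtap* flox/flox list the peak ranked above 93.4% by fold enrichment. By false discovery rate it ranked above 93.2% and 92.0% of the lists.

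*Ier2* (ENSMUSG00000053560), an early response gene with a nuclear product, lies on the minus strand of chromosome 8 from 84661331 to 84662852. A single long peak covered 64.7% of its span in *Wtap* flox/flox mice, from 84661480 to 84662464, and 68.7% in *Wtap*-BKO mice, from 84661450 to 84662494. Fold enrichments were 7.26 and 4.66, and log10 p-values were −105 and −97.1. The *Wtap*-BKO peak was 30 bases longer at each end.

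The 10 genes differed from the lists as a whole in the length of their peaks and in the size of their p-values, but little in fold enrichment. The median *Wtap* flox/flox peak on them covered 447 exonic bases, against 240 over the list, and the median *Wtap*-BKO peak 388, against 210. Peaks of at least 600 bases made up 8 of 23 and 7 of 24, against 10.1% and 7.26% of the lists. The median peak ranked above 79.8% of the *Wtap* flox/flox list and 90.2% of the *Wtap*-BKO list by false discovery rate. By fold enrichment it ranked above 49.0% and 53.8%. A false discovery rate listed as 0 was found for 5 *Wtap* flox/flox peaks (on *Jun*, *Jund*, *Egr1* and 2 on *Nr4a1*) and 3 *Wtap*-BKO peaks (on *Jun*, *Jund* and *Egr1*), against 0.799% and 0.444% of the lists. The p-value of a peak depends on how many reads a transcript has, and in a pool of tissue RNA fewer cells of a type and less RNA per cell cannot be told apart.

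**Figure D2:**
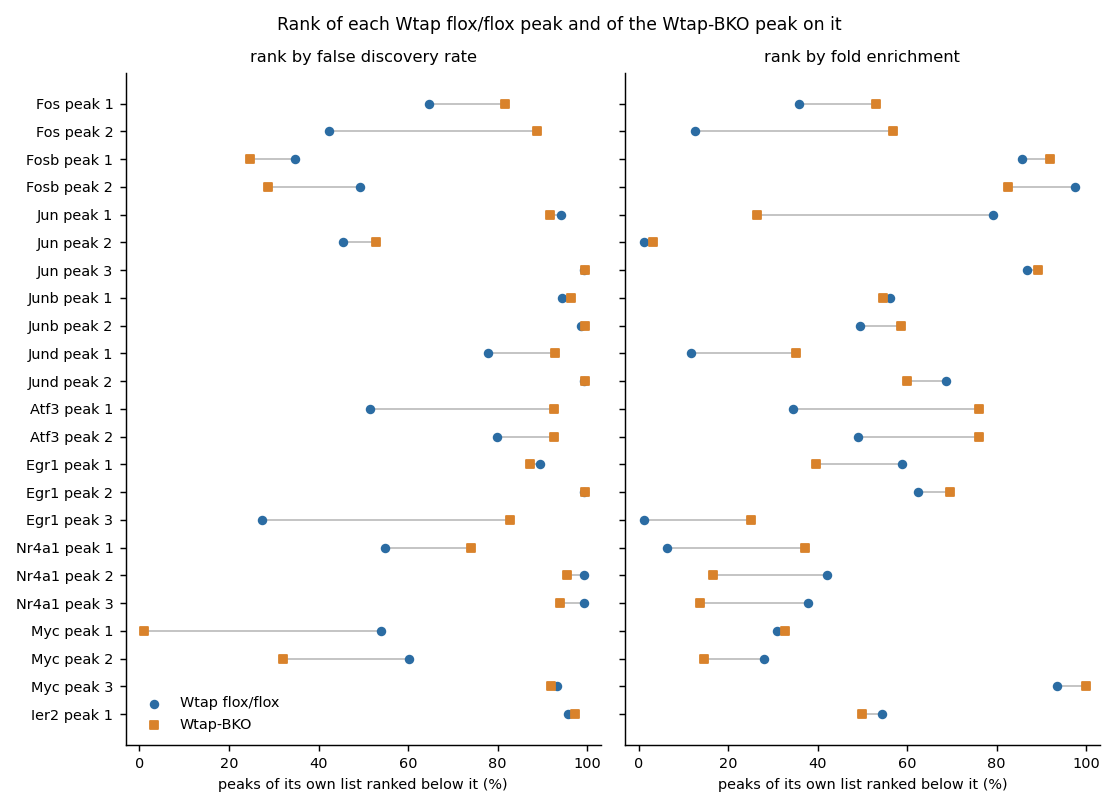
Rank of each of the 23 *Wtap* flox/flox peaks (blue circles) and of the *Wtap*-BKO peak that shared most bases with it (orange squares), as the percentage of peaks of its own list that ranked below it, by false discovery rate on the left and by fold enrichment on the right, with peaks numbered from the 5′ end. The 3′ peak of *Egr1* went from 27.5% to 82.7% and the first of *Myc* from 54.0% to 0.952% by false discovery rate, and the first of *Jun* from 79.1% to 26.5% by fold enrichment.

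There was no common direction among the ranks. By fold enrichment, 9 of the 23 *Wtap* flox/flox peaks had a lower rank in their *Wtap*-BKO counterpart and 14 a higher one. The median difference was 2.61 percentage points, with a range from −52.6 for the first *Jun* peak to 44.1 for the second *Fos* peak. The first *Jun* peak was set against only the larger of the *Wtap*-BKO peaks on it. Over all 12345 *Wtap* flox/flox peaks with a *Wtap*-BKO peak of the same gene on them, 49.2% had a lower rank and the median difference was 0.435. By false discovery rate, the 3 pairs listed at 0 in both lists (the 3′ peaks of *Jun* and *Jund* and the middle peak of *Egr1*) have no order. Of the other 20, 9 had a lower and 11 a higher rank, and the 45% with a lower rank stood against 44.2% of 12291 such pairs over all genes. By either measure the rank in *Wtap*-BKO mice was higher for both peaks of *Fos* and of *Atf3*, the middle peak of *Jun* and the 3′ peak of *Junb*. The same held for the short peak of *Jund*, the 3′ peak of *Egr1* and the first of *Nr4a1*. It was lower by either measure for *Nr4a1* peaks 2 and 3, the 3′ peak of *Fosb*, the first of *Jun* and of *Egr1* and the middle one of *Myc*. The *Wtap*-BKO peak on *Atf3* counts for both *Wtap* flox/flox peaks there.

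The strongest peak of a gene, taken by p-value, shared bases with the strongest peak in the other list for 8 of the 10 genes. Among the 8 genes with 2 or more peaks in each list it did so for 6, against 71.2% of all such genes. The exceptions were *Fos*, described above, and *Nr4a1*, where the strongest peak was the third in *Wtap* flox/flox mice and the second in *Wtap*-BKO mice.

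Of 11894 exonic bases under peaks on the 10 genes in *Wtap* flox/flox mice and 11747 in *Wtap*-BKO mice, 10791 were in both, which is 90.7% of the first and 91.9% of the second. *Fos*, *Atf3*, *Egr1* and *Ier2* had more covered bases in *Wtap*-BKO mice, and the other 6 genes had fewer. Covered bases on *Myc* fell by 269, and *Atf3* gained 239.

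**Figure D3:**
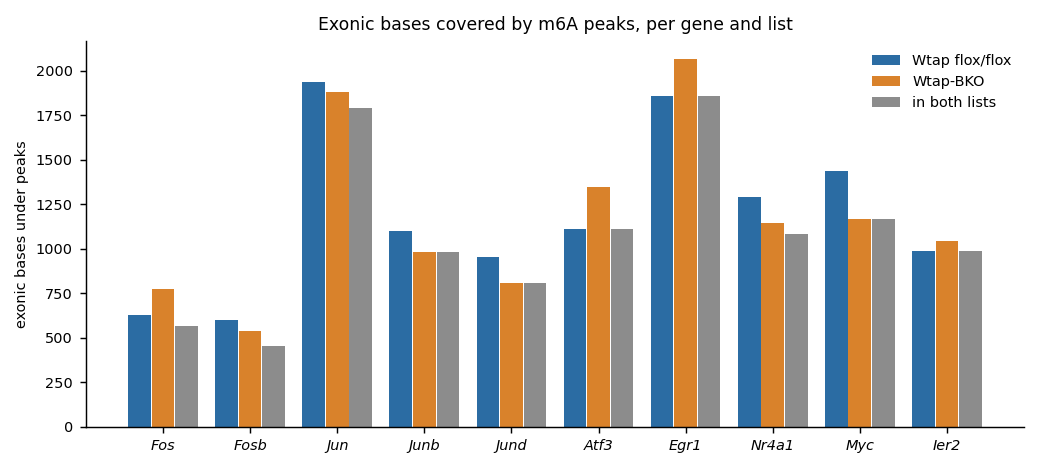
Exonic bases under peaks on each gene in *Wtap* flox/flox mice (blue bars), in *Wtap*-BKO mice (orange bars) and in both (grey bars). *Myc* went from 1435 to 1166 bases and *Atf3* from 1108 to 1347, and *Fosb* had the fewest bases in both lists, 451.

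The bases found in both lists, as a share of the bases under a peak in either, ranged from 65.5% for *Fosb* and 67.8% for *Fos* through 80.03% for *Nr4a1*, 81.3% for *Myc*, 82.3% for *Atf3*, 84.5% for *Jund*, 88.3% for *Jun*, 89.2% for *Junb* and 89.9% for *Egr1* to 94.3% for *Ier2*. The median of the 10 genes was 83.4%, and that of all 8014 genes with peaks in both lists was 53.3%. Among genes with 2 or more peaks in each list and a *Wtap* flox/flox peak with a false discovery rate under 1e-20, the median was 62.4% over 2083 genes and 86.4% over the 6 immediate early genes among them. Peaks on the 10 genes were longer than the list medians, as given above, and the share of length in this difference was not tested.

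**Figure D4:**
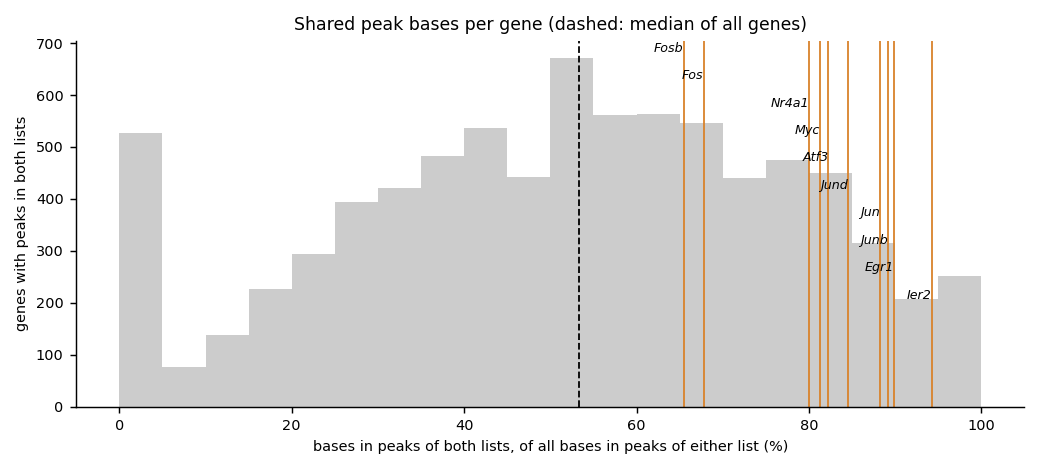
Histogram of the percentage of bases in peaks of both lists among all bases in peaks of either list, for the 8014 genes with peaks in both, in bins of 5 percentage points (vertical axis, number of genes). Orange lines mark the 10 immediate early genes, from 65.5% for *Fosb* to 94.3% for *Ier2*, and all lie to the right of the dashed median of all genes, 53.3%.

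Peak edges on these genes were often at the same base. Of 19 peaks that matched 1 to 1, 17 were single blocks in both lists, and 16 of their 34 edges were identical, against 23.8% of 16278 edges over all such pairs. Both edges were identical for 4 peaks, namely the 3′ peaks of *Jun* and *Myc*, the 5′ peak of *Egr1* and the short peak of *Jund*, against 7.26% over all such pairs. Of the 18 edges that moved, 17 had done so by a multiple of 30 bases (within 1 base), as had 96.1% over all such pairs. Most moved edges in these lists thus differed in steps of 30 bases.

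Along the gene, the median peak centre on the 10 genes lay at 67.3% of the span in *Wtap* flox/flox mice and 60.8% in *Wtap*-BKO mice, counted from the gene start. Over all peaks inside their gene it lay at 85.2% and 82.7%. Spans include introns, so except on intronless genes these are not positions on the transcript. The 10 genes and all genes were not matched for introns. The 10 genes include the start-proximal peaks of *Jun*, *Egr1*, *Fosb* and *Myc* described above. The gene table gave no stop codons or UTRs, and sequences under the peaks were not analysed here.

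Genes around the members were then counted from 5 lists: other rapidly induced genes, AP-1 and ATF partners, MYC partners, the factors that drive the serum and cAMP responses, and the corepressors of EGR proteins. Of 81 such genes, 75 had a peak, 69 of them (92%) had one for each genotype, 3 for *Wtap* flox/flox alone and 3 for *Wtap*-BKO alone, against 73.3%, 13.5% and 13.2% of all gene symbols. Of their 168 *Wtap* flox/flox peaks 86.3% were found in the other list, and of their 180 *Wtap*-BKO peaks 81.1%, against 67.8% and 68% of the lists. These totals include near-duplicate peaks on *Egr3*, described below, and were not matched for peak strength.

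Among 40 other rapidly induced genes, 36 had peaks in both lists and 2 in *Wtap* flox/flox only. One of these was *Nr4a2*, the close relative of *Nr4a1*. Its peaks on chromosome 2 (minus strand) ran from 57107845 to 57108649 and from 57111943 to 57112420, with log10 p-values of −73.2 and −28.6, and the first ranked above 93.1% of its list by false discovery rate. The other was *Gadd45b*, a stress-induced gene, with 1 peak from 80931814 to 80932084 on the plus strand of chromosome 10 and a log10 p-value of −16.0. *Nr4a3*, the third member of that receptor family, had 1 weak peak in each list, with log10 p-values of −4.94 and −6.20. *Klf6*, a zinc finger factor, and *Ppp1r15a*, a regulator of eIF2α dephosphorylation, each had 4 peaks in each list, all found in the other. *Egr3*, a relative of *Egr1*, had 6 and 8 peaks, but these are near-duplicates of one another within each list, so its count is inflated. *Dusp2* and *Fosl1* had no peak in either list.

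Among 18 AP-1 and ATF partners, 15 had peaks in both lists. *Batf* and *Batf3*, bZIP factors best known in leukocytes, had 1 peak each in *Wtap*-BKO mice only, with fold enrichments of 31.9 and 2.96 and log10 p-values of −17.7 and −3.10. *Fosl2*, the FOS relative, went from 4 peaks to 1. The strongest of the 4, from 32152928 to 32153737 on chromosome 5, enclosed the *Wtap*-BKO peak from 32153017 to 32153527, and the log10 p-values were −124 and −68.7. *Maf* went from 4 to 8 peaks, *Batf2* from 2 to 5, *Mafk* had 4 in each, and *Atf5* had 4 and 3.

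MYC partners had peaks in both lists for 7 of 11 genes, *Max* included, with 2 peaks in each. *Mxd3*, a MAX-binding repressor, had 1 *Wtap*-BKO peak only, with a log10 p-value of −4.35. *Mlx*, *Mycn* and *Zbtb17* had no peak. *Mga*, *Mycl* and *Mxd4* carried the most peaks, with 6, 6 and 3 in *Wtap* flox/flox mice and 6, 5 and 3 in *Wtap*-BKO mice. Of the 13 factors that drive the serum and cAMP responses, 11 had peaks in both lists, among them *Srf* and *Creb1*, and *Crtc1*, a CREB coactivator, had 1 peak in *Wtap* flox/flox only with a log10 p-value of −4.75, while *Elk1* had none. *Ep300*, *Crebbp* and *Elk3* carried the most peaks there, with 5, 4 and 4 in *Wtap* flox/flox mice and 4 each in *Wtap*-BKO mice. *Nab1* and *Nab2*, the EGR corepressors, had 3 peaks each in each list, and every one of them was found in the other.

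**Figure D5:**
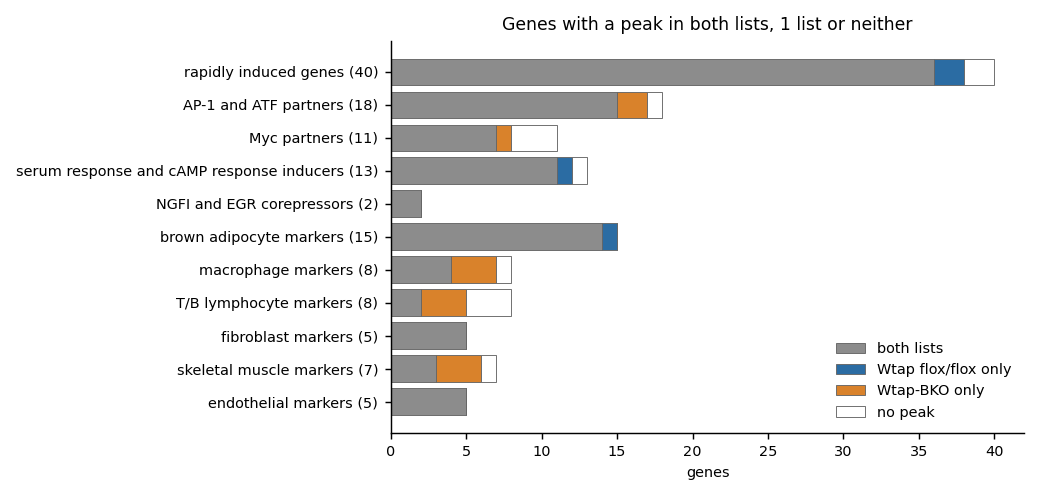
Number of genes per list (horizontal axis, list size in brackets) with a peak for both genotypes (grey), for *Wtap* flox/flox alone (blue), for *Wtap*-BKO alone (orange) or for neither (white). Of the rapidly induced genes 36 of 40 had peaks in both, and the orange segments of the macrophage, T/B lymphocyte and skeletal muscle markers hold 3 genes each.

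Peaks on marker genes of the labelled tissue and of other cells were then counted, although a peak alone does not identify a tissue. All 15 brown adipocyte markers, *Ucp1*, *Cidea* and *Prdm16* among them, had a peak in *Wtap* flox/flox mice. In *Wtap*-BKO mice 14 had one, with *Elovl3* missing. Thus 93.3% had a peak for each genotype, against 73.3% of all gene symbols. These markers held 41 *Wtap* flox/flox and 37 *Wtap*-BKO peaks, of which 73.2% and 81.1% were found in the other list, against 67.8% and 68% of the lists. *Prdm16* had 8 and 1 peaks, and *Pparg* 1 and 4. Immediate early genes are not specific to one cell type, and markers of other cells differed between the lists. Macrophage markers had 5 *Wtap* flox/flox peaks on 4 of 8 genes and 15 *Wtap*-BKO peaks on 7. T/B lymphocyte markers had 3 on 2 of 8 genes and 9 on 5, and skeletal muscle markers 3 on 3 of 7 genes and 8 on 6. In each of these groups 3 genes had peaks for *Wtap*-BKO alone and 0 for *Wtap* flox/flox alone. Over all gene symbols those shares were 13.2% and 13.5%. Fibroblast markers had 6 and 7 peaks and endothelial markers 14 and 17, each on 5 of 5 genes. *Adgre1*, *Cd3e*, *Ms4a1* and *Ckm* had no peak in either list. The part of these cells in the peaks of *Fos*, *Jun*, *Egr1* and the other members was not tested.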

How the data were processed

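MeRIP-seq was performed by the authors on 1 IP and 1 input sample per genotype, each pooled from 8 mice. The paper states a read format, 150 bp paired-end, for its RNA-seq but not for MeRIP-seq. The submitters' processing notes name fastp 0.19.11, BWA 0.7.12, HOMER 4.9.1 and GRCm38.p6 without their roles, and the methods name MACS2 for peak calling. The column layout is that of the R package exomePeak, so the caller could not be settled. Each deposited list gives a p-value per peak, 2 scores, deposited as log10 p-value and log10 false discovery rate, and a fold enrichment, a ratio of IP over input. The authors kept peaks with a false discovery rate under 0.05.

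From the lists, peaks were taken by gene symbol and matched by shared exonic bases (at least 1, same strand) in Python 3.11.15 with numpy 2.4.6, scipy 1.17.1 and matplotlib 3.10.9. Starts were read as BED and are printed 1-based. Ranks are the percentage of the same list with a larger false discovery rate or a lower fold enrichment. Gene spans are RefSeq's (GRCm38.p6). The matching code was run on an altered copy of the 18400 *Wtap* flox/flox peaks, each kept, trimmed or removed. The copy of each peak was found or missed correctly for 100%. This checks the code only, and matches to other peaks were not tested. Members and gene lists were chosen with earlier results of these data known. All members are named with every peak. From the other lists, genes with a peak in 1 list only and the 3 with the most peaks per list (more where tied) are named, and *Nr4a3*, *Fosl2*, *Max*, *Srf*, *Creb1*, *Dusp2*, *Fosl1*, *Mlx*, *Mycn*, *Zbtb17* and *Elk1* were added after their values were seen. *Mkl1*, *Mkl2* and *Zbtb17*, which the lists held under 2 names each, were counted once. Alternatives changed the overlap rule, the threshold, the ranking and the peak centre. Read depth is unknown, and no test between genotypes was possible with 1 sample each.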

Additional observations from a re-analysis of the deposited data

How the results depend on the processing

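Of 32 alternative values for 12 results, 28 stayed within 1.5 times the reported count or median, or within the interval of the reported share. Some of these could not have moved. All member peaks were already found, so looser overlap rules, or a limit only in the list searched from, had to give 100% again. Counting overlap with any peak could not lower the 10 members with a peak. The median rank of the peaks fell from 79.8% to 49.0% in *Wtap* flox/flox and from 90.2% to 53.8% in *Wtap*-BKO mice when ranked by fold enrichment. Among the surrounding genes, those with a peak in *Wtap*-BKO only numbered 5 under a false discovery rate of 1e-05 (*Batf*, *Batf2*, *Mxd1*, *Mxi1* and *Nr4a3*), and those in *Wtap* flox/flox only numbered 6 under 1e-10 (*Atf6*, *Gadd45b*, *Ier3*, *Mafg*, *Mnt* and *Nr4a2*). The cause was not tested. With at least 50% of bases shared, 22 of 23 and 22 of 24 peaks were found, against 59.3% and 62.5% of the lists. With a limit of 1e-05 in both lists, 85.7% and 94.7% were found, against 66.2% and 71.9% of the lists, the exceptions being 1 peak of *Fosb*, 2 of *Myc* and the 3′ peak of *Egr1*. The 85.7% lay barely above the lower end of the interval of the reported share, which also rounds to 85.7%. Depth could not be examined. No paired analysis was possible because each genotype has 1 pooled sample, and no replicate could be left out.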
